A study of Mus musculus with 3 samples.

Results

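The 10 genes described here, genes of regulatory T cells and of T cell costimulation, were followed through the cells of the glioblastoma (GBM) microenvironment: *Foxp3*, *Ikzf2*, *Il2ra*, *Izumo1r*, *Tnfrsf4*, *Tnfrsf18*, *Tnfrsf9*, *Icos*, *Cd28* and *Gata3*. They are 10 of the 31053 genes in the count files, and all 10 were found by symbol. They were chosen because their UMI counts and their shares of positive cells differed between CD4 T, CD8 T and natural killer (NK) cells and between libraries. Their values in those comparisons are therefore given as a description, without a test. A UMI, or unique molecular identifier, marks a single captured RNA molecule.

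The samples were 3 droplet scRNA-seq libraries from female C57BL/6 mice, 6 to 8 weeks old, that carried an intracranial tumor in the right striatum. The tumor came from the brain tumor-initiating cell line BTIC0309, grown from an NPcis mouse with mutant *Nf1* and *Trp53* and marked with luciferase and GFP, so every group shares a single tumor line. The vehicle library (replicate 2) came from mice given saline, and 2 niacin libraries (replicates 1 and 2) came from mice given niacin at 100 mg/kg into the peritoneum each day from day 7. Tissue was taken in week 4 from a slice around the injection site, and leukocytes were enriched on Percoll and sorted as live cells. Methods give 5 control mice and 10 niacin mice in 2 replicates, whereas the labels give 4 pooled brains per library. Pooled animals and a single vehicle library leave the spread between vehicle animals unknown, so vehicle and niacin were not tested against each other.

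FOXP3 is the transcription factor that defines regulatory T cells, a CD4 T cell lineage that holds back immune responses and that gathers in many tumors. Helios (*Ikzf2*) and GATA3 are transcription factors that act with it in these cells, CD25 (*Il2ra*) is the alpha chain of the high-affinity IL-2 receptor, and folate receptor 4 (*Izumo1r*) is a surface protein known from regulatory and follicular T cells. OX40 (*Tnfrsf4*), GITR (*Tnfrsf18*) and 4-1BB (*Tnfrsf9*) are receptors of the TNF receptor family, and CD28 and ICOS belong to the CD28 family. These receptors add a costimulatory signal to that of the T cell receptor, and OX40, GITR, 4-1BB and ICOS rise on T cells after activation.

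The libraries held 8301228 to 10359526 UMIs, and 5528 of 6947 barcodes passed the filters on genes and mitochondrial UMIs. Cells were assigned to classes from the UMIs of lineage markers, none of which is a gene of the set. This gave 151 CD4 T cells (64, 40 and 47 in the order vehicle, niacin replicate 1, niacin replicate 2), 183 CD8 T cells (45, 69 and 69) and 104 NK cells (69, 13 and 22). Another 190 T cells (85, 42 and 63) had neither *Cd4* nor CD8 UMIs, or both, and are called other T cells. The median UMI count of CD4 T cells was 5712.5, 4454 and 6208 in that order, and that of microglia, the class used as background, 4301, 4279 and 3071. The T cell markers held out of the class rule, *Cd5*, *Cd6*, *Cd247*, *Bcl11b*, *Thy1* and *Lat*, were all detected in the CD4 T cells of each library and summed to 2149, 2237 and 2092 CPM, the UMIs of the genes per 1000000 UMIs of the class. In NK cells they summed to 400, 360 and 388 CPM. In droplet data of this kind, fewer positive cells and less RNA per cell both lower a summed level, so shares of positive cells are given beside it.

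Libraries shared barcodes. Of the cells that passed, 424 (28.0%), 824 (45.5%) and 802 (36.4%) had a barcode found in more than 1 library, and the deepest copy of a shared barcode held a median of 19.1 times the UMIs of its shallowest copy. Among CD4 T cells 18 of 151 barcodes were shared, and 1 was not the deepest copy. Among CD8 T cells the numbers were 50 and 17 of 183, among other T cells 59 and 38 of 190, and among NK cells 17 and 11 of 104. Some values are therefore also given without shared barcodes.

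In the GENCODE M21 annotation of GRCm38 (mm10), the build of the files, *Foxp3* lies on the plus strand of chromosome X (chrX:7573644-7595245). Its exons overlap those of *Flicr*, a noncoding RNA on the same strand, and reads in that overlap could not be assigned to a single gene. *Tnfrsf4* (chr4:156013843-156016612) and *Tnfrsf18* (chr4:156026164-156028895) are neighbors on the plus strand, 9551 bases apart with no protein-coding gene between them, and *Tnfrsf9* (chr4:150914562-150946102) lies elsewhere on the same chromosome. *Cd28* (chr1:60716800-60773359) and *Icos* (chr1:60977927-61000320) are on the plus strand of chromosome 1, 204567 bases apart, with *Ctla4* as the only protein-coding gene between them. *Ikzf2* (chr1:69531214-69687245) is on the minus strand of chromosome 1. *Il2ra* (chr2:11642807-11693193) is on the plus and *Gata3* (chr2:9857078-9890034) on the minus strand of chromosome 2, and an exon of *Gata3* overlaps the noncoding gene *9230102O04Rik* on the same strand. *Izumo1r* (chr9:14885814-14903949) is on the minus strand of chromosome 9.

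Upstream sequences are shown for *Foxp3* and for 4 genes that rose with it in the comparison below, the alpha chain of the IL-2 receptor and the 3 receptors of the TNF receptor family. They come from RefSeq (GRCm38.p6), whose table held start sites for 7 of the 10 genes. *Foxp3* and *Tnfrsf9* each had 2 start sites, of which the downstream one is used here. Only bases within 250 of the start site and outside annotated UTRs are printed, 5′ to 3′ on the strand of the gene, and all 5 genes are on the plus strand. Capitals mark matches, on either strand, to the letters of 5 motifs. STAT factors are known to bind TTCNNNGAA. The letters searched for GATA factors were AGATAA. Those for forkhead factors such as FOXP3 were GTAAACA. AP-1 is known to bind TGANTCA and NFAT to bind GGAAA.
*Foxp3*, chrX:7580233-7580482: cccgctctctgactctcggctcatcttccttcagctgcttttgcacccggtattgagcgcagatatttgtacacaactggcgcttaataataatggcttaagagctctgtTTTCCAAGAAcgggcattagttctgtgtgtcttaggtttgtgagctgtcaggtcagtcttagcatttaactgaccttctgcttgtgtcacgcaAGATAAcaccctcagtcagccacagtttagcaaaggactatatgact
*Il2ra*, chr2:11642542-11642791: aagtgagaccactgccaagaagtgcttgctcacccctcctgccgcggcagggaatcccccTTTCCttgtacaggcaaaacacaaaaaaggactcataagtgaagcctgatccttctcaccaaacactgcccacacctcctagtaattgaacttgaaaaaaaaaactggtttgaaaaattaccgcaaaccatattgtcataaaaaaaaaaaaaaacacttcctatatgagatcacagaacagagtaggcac
*Tnfrsf9*, chr4:150927749-150927917: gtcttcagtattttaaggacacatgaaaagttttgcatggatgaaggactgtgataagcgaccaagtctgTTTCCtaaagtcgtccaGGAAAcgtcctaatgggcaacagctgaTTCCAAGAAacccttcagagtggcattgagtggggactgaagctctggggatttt
*Tnfrsf18*, chr4:156026072-156026163: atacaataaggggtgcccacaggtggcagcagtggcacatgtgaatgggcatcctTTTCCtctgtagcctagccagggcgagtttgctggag
*Tnfrsf4*, chr4:156013611-156013694: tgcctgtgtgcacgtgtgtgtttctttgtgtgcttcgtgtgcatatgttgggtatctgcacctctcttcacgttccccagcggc

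The printed *Foxp3* stretch held the STAT letters at position -139 from the start site, overlapping an NFAT match at -140, and the GATA letters at -47. The *Tnfrsf9* stretch held the STAT letters at -136 and NFAT letters at -180 and -163. *Il2ra* and *Tnfrsf18* showed only NFAT letters, at -190 and -195, and no match lay in the printed part of *Tnfrsf4*. The parts of these windows that are not printed held further matches, among them STAT letters at -99 of *Tnfrsf18*. Among the 250-base windows of 32817 start sites, the STAT letters occurred in 7.01%, GATA in 9.99%, forkhead in 3.16%, AP-1 in 6.75% and NFAT in 55.6%. A match of letters is not evidence of binding.

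*Foxp3* was found in 55 barcodes in all, 39 of them T cells outside the CD8 class. In CD4 T cells it had 90 UMIs in 13 of 64 cells of the vehicle library, 7 UMIs in 2 of 40 cells of niacin replicate 1 and none in 47 cells of niacin replicate 2. The summed level was 247 CPM (exact Poisson 95% interval 198 to 303), 37.4 CPM (15.0 to 77.0) and 0 CPM, where a count of 0 allows up to 10.9 CPM. The share of positive CD4 T cells was 20.3% (exact binomial 95% interval 11.3% to 32.2%), 5.00% (0.611% to 16.9%) and 0%, which allows up to 6.38%. Thinned to 1000 UMIs per cell, the shares were 19.0%, 2.70% and 0%. The intervals of the 3 summed levels did not overlap each other. For the share, the vehicle interval overlapped that of niacin replicate 1 but not that of niacin replicate 2 (0% to 7.55%), and the intervals of the niacin libraries overlapped. Intervals in this text cover counting error only, not the spread between animals. The Poisson intervals also treat UMIs as independent, although the 7 UMIs of niacin replicate 1 came from 2 cells. In the vehicle library 38.9% of the UMIs came from 3 cells.

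In each library, vehicle and niacin alike, more *Foxp3*-positive cells lay outside the CD4 T class than in it. Other T cells had 45 *Foxp3* UMIs in 15 of 85 cells, 13 in 3 of 42 and 14 in 6 of 63, or 107, 103 and 65.3 CPM in the order vehicle, niacin replicate 1, niacin replicate 2. Taking all T cells outside the CD8 class together, 28 of 149 cells were positive in the vehicle library (18.8%, 12.9% to 26.0%), 5 of 82 in niacin replicate 1 (6.10%, 2.01% to 13.7%) and 6 of 110 in niacin replicate 2 (5.45%, 2.03% to 11.5%). Without shared barcodes the shares were 20.5%, 9.43% and 7.59%, and thinned to 1000 UMIs they were 14.8%, 4.76% and 6.10%. The vehicle value was the highest in each of these readings, but intervals overlapped. Without shared barcodes the vehicle interval (13.9% to 28.3%) overlapped those of niacin replicate 1 (3.13% to 20.7%) and 2 (2.84% to 15.8%). The same held when thinned (9.29% to 21.9% against 0.993% to 13.3% and 2.01% to 13.7%). With all cells unthinned it overlapped only that of niacin replicate 1. Of the remaining *Foxp3*-positive barcodes, 7 were T or NK cells that could not be resolved and 7 belonged to no class.

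Other classes gave the background. *Foxp3* had no UMI in 104 NK cells or 119 B cells and 1 UMI in 2426 microglia, 0.0897% of the cells of niacin replicate 2. In CD8 T cells a single barcode of niacin replicate 1 carried all 10 UMIs. That barcode held 10781 UMIs, was shared between libraries, and had a UMI of each of the 10 genes, beside 1 *Cd8a* UMI. Without shared barcodes no CD8 T cell was *Foxp3*-positive.

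**Figure D1:**
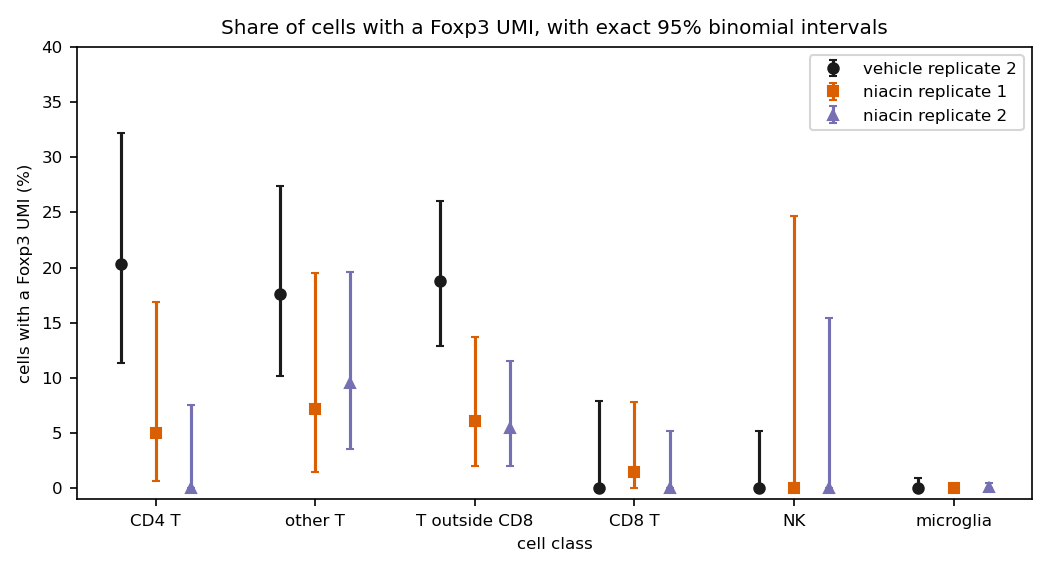
Percent of cells with at least 1 *Foxp3* UMI (vertical axis) by cell class (horizontal axis) in the vehicle library (black circles), niacin replicate 1 (orange squares) and niacin replicate 2 (purple triangles), with exact 95% binomial intervals as bars. CD4 T cells of the vehicle library stand at 20.3%, those of the niacin libraries at 5.00% and 0%, and microglia at 0.0897% or below.

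*Ikzf2*, which encodes Helios, was found in every T and NK class. In CD4 T cells it reached 715 CPM in vehicle cells and 123 and 138 CPM in those of niacin replicates 1 and 2, with 30 of 64, 8 of 40 and 9 of 47 cells positive. CD8 T cells had 306, 63.7 and 79.2 CPM, and NK cells 163, 65.4 and 55.4 CPM. Among these T and NK classes its level was highest in other T cells, at 1185, 712 and 224 CPM in the same order. The vehicle library was the highest of the 3 in all 4 classes.

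Within other T cells, *Ikzf2* was not limited to *Foxp3*-positive cells. In the vehicle library the 15 *Foxp3*-positive cells had 2126 CPM, the 32 cells with a gamma or delta T cell receptor chain UMI and no *Foxp3* had 860 CPM, and the 38 cells with neither had 1024 CPM. In niacin replicate 1 these groups had 2068, 341 and 683 CPM, and in niacin replicate 2 they had 900, 124 and 166 CPM. This division was chosen after the values had been seen, and *Foxp3*-positive cells had the highest level in each of the 3 libraries.

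*Ikzf2* was also detected outside lymphocytes. Microglia had 66.4, 41.4 and 47.5 CPM (146, 172 and 218 UMIs), with 24.6%, 15.1% and 14.2% of cells positive. Basophils and mast cells, the class of allergic effector cells, numbered only 5, 31 and 36 cells. They had 12, 26 and 32 *Ikzf2* UMIs among 15694, 112135 and 119176 UMIs of the class. Per UMI of the class, that level was above the CD4 T level in each library and above the other T level in niacin replicate 2. B cells had none in 119 cells. Since *Ikzf2* was found in microglia, these cells are no background for it. The thinned share of positive microglia was 4.86%, 3.66% and 5.09%. In the niacin libraries it was below that of CD4 T cells (8.11% and 6.67%), with overlapping exact binomial intervals. Those CD4 T shares rested on 3 of 37 and 3 of 45 cells.

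*Il2ra*, the CD25 gene, had 260 CPM in vehicle CD4 T cells and 80.1 and 65.5 CPM in those of niacin replicates 1 and 2. Other T cells showed almost the same level in all 3 libraries, 159, 150 and 145 CPM. CD8 T cells had 74.4, 45.5 and 18.1 CPM, and of 104 NK cells only 2, both in the vehicle library, carried a UMI. B cells had 7, 4 and 3 UMIs. *Izumo1r* was more limited to T cells outside the CD8 class. It had 345, 80.1 and 69.1 CPM in CD4 T cells and 92.4, 71.2 and 79.3 CPM in other T cells. CD8 T cells had 19.6, 36.4 and 4.52 CPM, and 1 NK cell was positive.

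Of the TNF receptor family genes, *Tnfrsf4* (OX40) had 523, 149 and 127 CPM in CD4 T cells and 147, 198 and 289 CPM in other T cells. CD8 T cells had only 7.83, 24.3 and 6.79 CPM and NK cells 2 UMIs in all. *Tnfrsf18* (GITR) was found in every T and NK class. It had 540, 123 and 204 CPM in CD4 T cells, 137, 97.0 and 83.7 CPM in CD8 T cells and 90.8, 229 and 166 CPM in NK cells, so that in niacin replicate 1 the NK level was above the CD4 T level. NK cells were few in the niacin libraries, 13 and 22, and their exact Poisson intervals for *Tnfrsf18* (92.0 to 471 and 93.0 to 274 CPM) overlapped that of the vehicle library (50.8 to 150 CPM).

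*Tnfrsf9* (4-1BB) was nearly absent from CD4 T cells of the niacin libraries. In CD4 T cells it had 124 UMIs in 18 of 64 vehicle cells, 3 UMIs in 1 of 40 cells of niacin replicate 1 and 6 UMIs in 3 of 47 cells of niacin replicate 2, or 340, 16.0 and 21.8 CPM. Other T cells had 228, 7.91 and 56.0 CPM, CD8 T cells 31.3, 6.07 and 0 CPM, and NK cells 139, 32.7 and 88.6 CPM. In the vehicle CD4 T cells 43.5% of its UMIs came from 3 cells, the highest such share of the 10 genes there.

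The CD28 family genes differed from each other. *Icos* had 595, 123 and 175 CPM in CD4 T cells, 39.2, 42.5 and 54.3 CPM in CD8 T cells and 7 UMIs in NK cells, all in the vehicle library. *Cd28*, the constitutive costimulatory receptor of T cells, had 458, 395 and 244 CPM in CD4 T cells, with 76.6%, 82.5% and 74.5% of cells positive. It had 149, 146 and 111 CPM in CD8 T cells and 84.8, 98.1 and 44.3 CPM in NK cells. With all cells, the order of these values, CD4 T, other T (197, 166 and 215 CPM), CD8 T, NK, was kept without overlap of the 3 libraries between neighbors. Without shared barcodes, CD4 T cells (483, 544 and 255 CPM) and other T cells (198, 234 and 264 CPM) overlapped, and other T cells were higher in niacin replicate 2. The NK values of niacin replicates 1 and 2 rested on 3 and 4 UMIs, the 4 from 1 cell. *Gata3* had 269, 192 and 124 CPM in CD4 T cells, 147, 190 and 205 CPM in other T cells, 97.9, 91.0 and 76.9 CPM in CD8 T cells and 115, 0 and 99.7 CPM in NK cells.

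**Figure D2:**
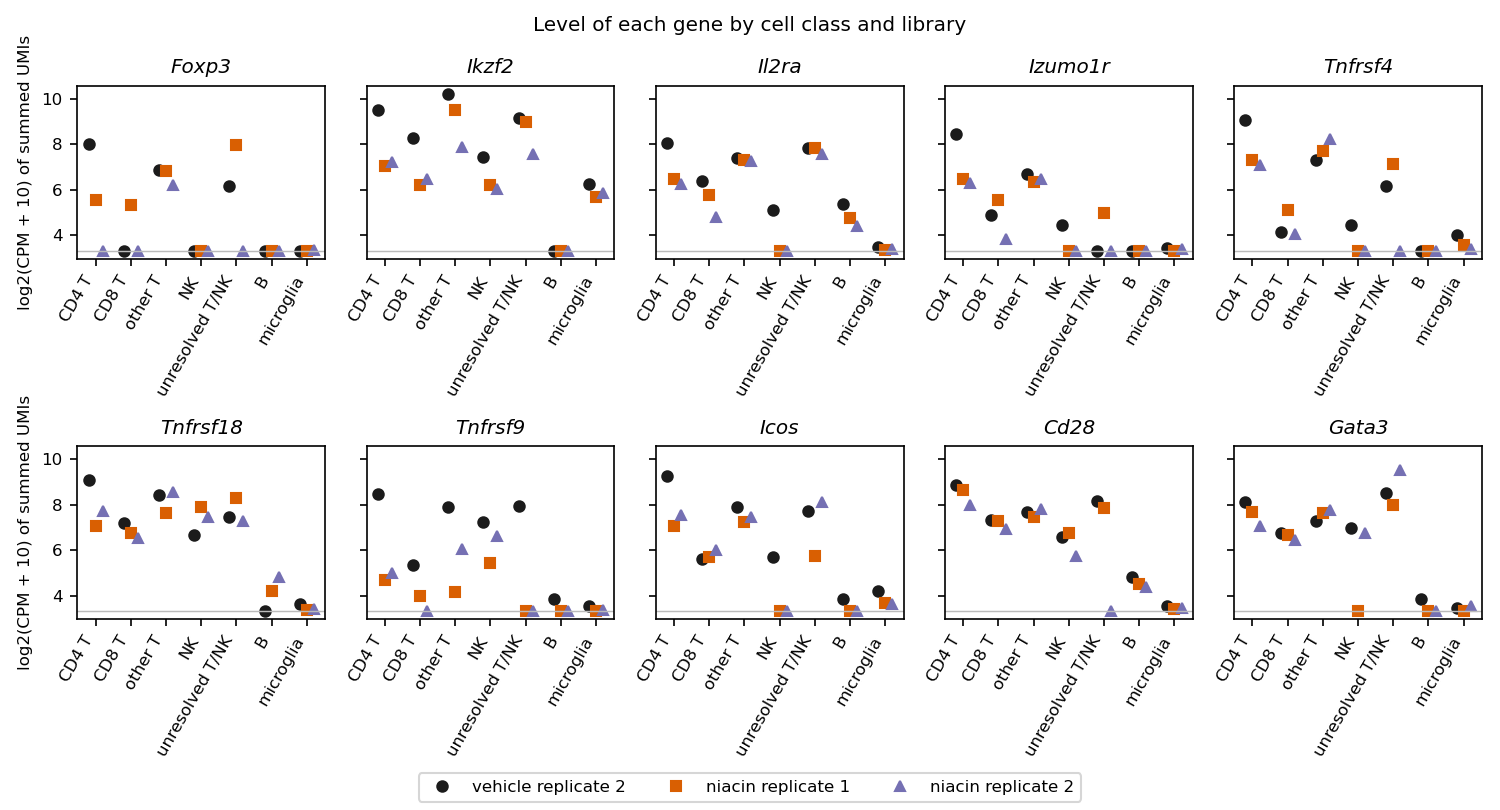
Level of each of the 10 genes as log2(CPM + 10) of summed UMIs (vertical axis) by cell class (horizontal axis), 1 panel per gene and 1 point per library; the gray line is the value at 0 CPM. *Tnfrsf4*, *Izumo1r* and *Icos* stand near that line in NK cells of the niacin libraries and in B cells, whereas *Ikzf2* is above it in microglia of all 3 libraries.

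Classes were compared within each library, and a direction was counted only where the higher class had more than 3 UMIs and lay above the level that 3 UMIs would give in the lower class. That rule does not weigh counting error, so some counted directions have overlapping exact Poisson intervals. CD4 T cells were above CD8 T cells in all 3 libraries for 8 of the 10 genes. In niacin replicate 1, however, *Il2ra* had 15 UMIs in each class, or 80.1 and 45.5 CPM, with overlapping intervals. *Tnfrsf18* had 123 and 97.0 CPM there, also with overlapping intervals. *Foxp3* was at 0 in both classes of niacin replicate 2, and *Tnfrsf9* had only 3 and 2 UMIs in those of niacin replicate 1. The mean log2 ratio of CPM + 10 was largest for *Tnfrsf4* (3.38 ± 1.38, SD, n = 3 libraries), *Izumo1r* (2.33 ± 1.32) and *Icos* (2.16 ± 1.27), and smallest for *Ikzf2* (0.93 ± 0.24) and *Gata3* (1.00 ± 0.37). The vehicle library gave the largest ratio for each of the 10 genes. Against NK cells, CD4 T cells were above in 3 of 3 libraries for 5 genes, *Ikzf2*, *Tnfrsf4*, *Icos*, *Cd28* and *Gata3*. For *Gata3* in niacin replicate 2 (124 and 99.7 CPM), among others, the intervals overlapped. *Il2ra* and *Izumo1r* were above in 2 of 3, since 0 UMIs in the 13 NK cells of niacin replicate 1 allow up to 98.1 CPM. *Tnfrsf18* was above in 2 libraries and below in 1, *Tnfrsf9* was above in 1 and below in 1, and *Foxp3* was above in 1, with the remaining directions of both not resolved. *Tnfrsf9* and *Gata3* were lower in CD8 T than in NK cells in 2 libraries each and not resolved in niacin replicate 1, and *Cd28* was the only gene higher in CD8 T cells in all 3. For *Gata3* the intervals overlapped in the vehicle library (97.9 and 115 CPM) and niacin replicate 2 (76.9 and 99.7 CPM). For scale, the fit across all 4573 genes called 2.03% higher and 1.82% lower in CD4 T than in CD8 T cells, 6.01% higher and 4.81% lower in CD4 T than in NK cells, and 6.10% higher and 4.11% lower in CD8 T than in NK cells. The genes were chosen on these contrasts, and nothing is read from that background.

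Whether the other genes went with *Foxp3* was not itself used to choose them, but differences between CD4 T, CD8 T and NK cells were. Outside the CD8 class, the *Foxp3*-negative cells include 32, 10 and 10 other T cells with a gamma or delta chain UMI, in library order. This comparison is therefore not independent of the choice of genes, and the part of cell make-up in it was not tested. T cells outside the CD8 class were split by the presence of a *Foxp3* UMI, 39 positive against 302 negative cells, and the 6 sums of UMIs per library and state entered the quasi-likelihood test of edgeR, blocked on library. Positive and negative cells had a median of 4878 and 4645.5 UMIs, although in niacin replicate 1 the medians were 4878 and 1519 and in niacin replicate 2 they were 1995.5 and 4949.5. The vehicle library gave 28 of the 39 positive cells but 121 of the 302 negative cells. Shares pooled over libraries therefore also hold differences between libraries and serve as a description only. Pooled in this way, 36 of 39 positive cells (92.3%) had an *Ikzf2* UMI, against 103 of 302 negative cells (34.1%). For *Il2ra* the shares were 64.1% and 18.2%, for *Izumo1r* 66.7% and 14.2%, and for *Tnfrsf9* 48.7% and 9.60%. *Cd28* was the nearest to equal, with 61.5% and 55.6%.

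**Figure D3:**
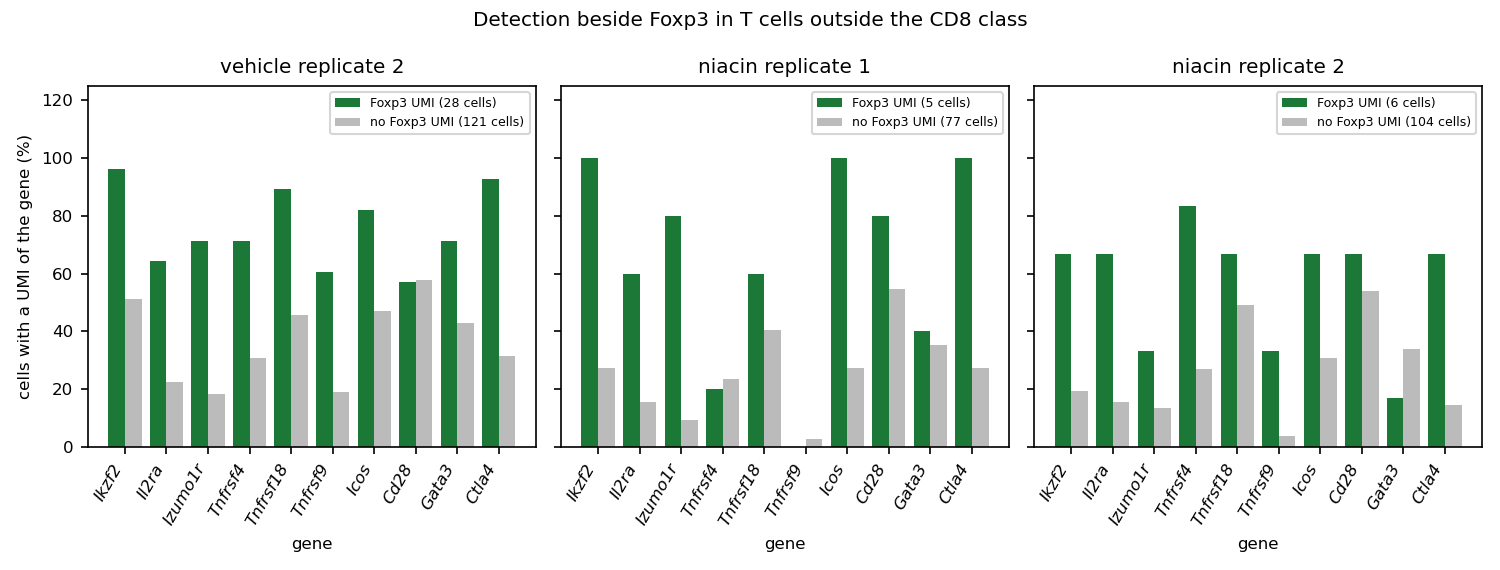
Percent of cells with a UMI of each gene (vertical axis) among T cells outside the CD8 class with (green) and without (gray) a *Foxp3* UMI, 1 panel per library; *Ctla4* is shown for comparison. *Ikzf2*, *Il2ra*, *Izumo1r*, *Icos* and *Ctla4* are detected more often in the positive cells of all 3 libraries, and the niacin panels rest on 5 and 6 positive cells.

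*Il2ra* was higher in *Foxp3*-positive cells in each library, with 649 against 91.2 CPM in vehicle cells, then 492 against 70.1 CPM and 663 against 74.8 CPM in niacin replicates 1 and 2. The log2 fold change was 2.75 (SE 0.37), with an edgeR adjusted p of 1.4e-05. *Ikzf2* had 2262 against 632 CPM, 1687 against 228 CPM and 900 against 143 CPM, a log2 fold change of 2.24 (SE 0.33, adjusted p 4.1e-05, edgeR). Both transcripts were higher in positive cells in 3 of 3 libraries and kept the call in all 15 alternatives run.

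*Izumo1r* had 593 against 110 CPM, 492 against 35.1 CPM and 190 against 68.4 CPM in the same order (log2 fold change 2.42, SE 0.43, edgeR adjusted p 0.000927). *Tnfrsf4* had 766 against 206 CPM, 211 against 165 CPM and 2037 against 115 CPM, and rose by a log2 fold change of 2.15 (SE 0.44, edgeR adjusted p 0.00424). In niacin replicate 2, 26 of its 43 UMIs in positive cells came from 1 cell, and without that library the edgeR adjusted p was 0.444. The *Izumo1r* call was likewise lost without niacin replicate 1 (edgeR adjusted p 0.0623).

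*Tnfrsf9* had 909 against 117 CPM in the vehicle library, 0 against 14.0 CPM in niacin replicate 1 and 474 against 17.1 CPM in niacin replicate 2, with a log2 fold change of 3.07 (SE 0.51, edgeR adjusted p 0.000308). *Tnfrsf18* had 1026 against 277 CPM, 141 against 151 CPM and 1658 against 211 CPM (log2 fold change 1.73, SE 0.40, edgeR adjusted p 0.0144). Each of these receptors was higher in positive cells in 2 of 3 libraries. In niacin replicate 2, the cell with the 26 *Tnfrsf4* UMIs also held 21 *Tnfrsf18* and 8 *Tnfrsf9* UMIs. A second cell held 11 *Tnfrsf18* and 2 *Tnfrsf9* UMIs, and no other positive cell of that library had a *Tnfrsf9* UMI. The *Tnfrsf18* call was lost in 4 of 15 alternatives, among them the fit without niacin replicate 2 (edgeR adjusted p 0.606) and DESeq2 (adjusted p 0.103).

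*Icos*, *Cd28* and *Gata3* did not pass. *Icos* had 680 against 325 CPM, 246 against 119 CPM and 663 against 150 CPM, and missed the threshold with a log2 fold change of 1.22 (SE 0.37, edgeR adjusted p 0.141), although it was higher in positive cells of all 3 libraries. *Gata3* (log2 fold change 0.35, SE 0.43) and *Cd28* (-0.37, SE 0.39) both had an edgeR adjusted p of 0.986. Thus 6 of the 9 genes tested were called higher and none lower, with a median log2 fold change of 2.15 against -0.09 over all 3672 genes. Of those, 0.953% were called, 0.408% higher and 0.545% lower. The 9 genes were chosen with earlier results of these data known, among them differences between CD4 T, CD8 T and NK cells. The count of called genes is therefore not independent of that choice.

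Within the CD4 T class alone, the same comparison rested on 15 positive cells, 13 in the vehicle library and 2 in niacin replicate 1. Niacin replicate 2 had none and did not enter. With 2 libraries, the p-values of this fit say little about the spread between libraries. *Ikzf2* (log2 fold change 3.22, SE 0.44, edgeR adjusted p 4.8e-10), *Izumo1r* (2.52, adjusted p 0.00142), *Tnfrsf9* (2.92, adjusted p 0.00236, higher in 1 of 2 libraries) and *Il2ra* (2.23, adjusted p 0.0424) passed. *Tnfrsf18*, *Tnfrsf4* (0.87), *Icos* (0.49), *Cd28* (-0.96) and *Gata3* (0.05) did not, with edgeR adjusted p from 0.260 to 1.00. This fit called 0.967% of 2379 genes, 0.631% higher and 0.336% lower, and it was less stable. DESeq2 called 1 gene in all, and no call remained without the library block. *Ikzf2* kept the call in 9 of 11 alternatives, *Izumo1r* in 7 of 11, *Tnfrsf9* in 7 of 10 and *Il2ra* in only 3 of 10.

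**Figure D4:**
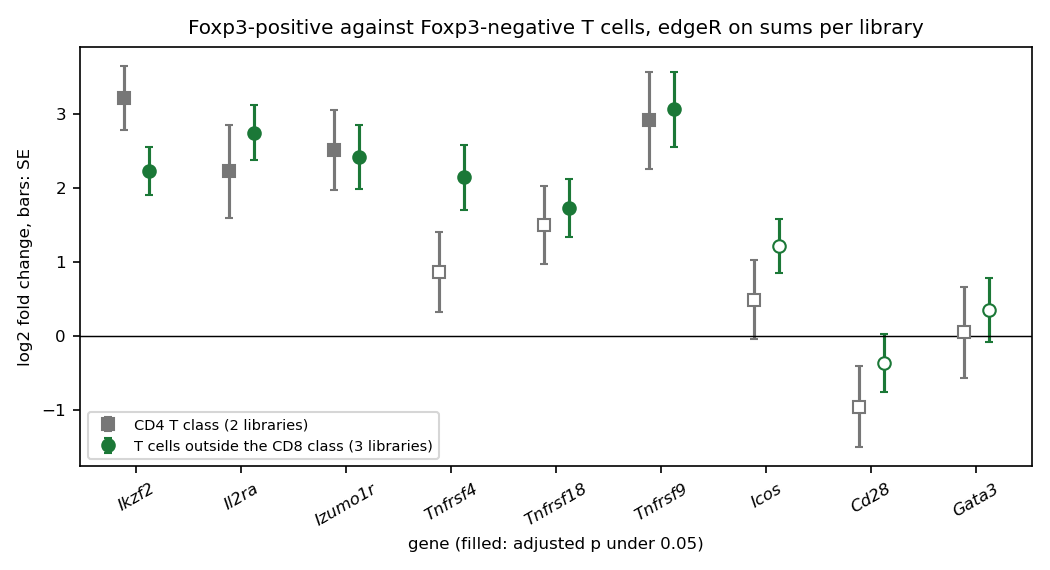
Log2 fold change of *Foxp3*-positive over *Foxp3*-negative cells (vertical axis, bars: SE) for the 9 other genes (horizontal axis), in the CD4 T class (gray squares, 2 libraries) and in all T cells outside the CD8 class (green circles, 3 libraries). Filled symbols passed an adjusted p of 0.05, and *Icos*, *Cd28* and *Gata3* are open in both fits.

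Genes of the same pathways moved with this split. Of 17 other regulatory T cell genes, 7 could be tested in T cells outside the CD8 class, and 3 rose, *Ctla4* (log2 fold change 2.71, SE 0.38, edgeR adjusted p 2.8e-05), which encodes an inhibitory receptor for the CD28 ligands, *Ikzf4* (2.86, adjusted p 0.000752), a relative of *Ikzf2*, and *Lrrc32* (3.08, adjusted p 0.00260), whose product GARP presents latent TGF-beta. *Satb1*, a chromatin organizer, fell by 2.49 (edgeR adjusted p 0.00223). *Ikzf4* and *Satb1* lost the call without the vehicle library (edgeR adjusted p 0.174 and 0.339), and *Lrrc32* without niacin replicate 1 (0.0509). The list's median log2 fold change was 1.46. Of 13 helper and naive T cell genes 5 could be tested, none rose, and *Tcf7* (-2.16, adjusted p 0.0124) and *Ifng* (-4.23, adjusted p 0.0238), the interferon-gamma gene, fell. Neither was called without the vehicle library (edgeR adjusted p 0.758 and 0.782), nor by DESeq2 (0.258 and 0.288), which also gave 0.0509 for *Satb1*. *Ifng* was not called without niacin replicate 1 either (edgeR adjusted p 0.0509). None of 4 tested genes of the IL-2 pathway or 3 tested genes of other costimulatory receptors passed the test. Among the latter, the TNF receptor gene *Tnfrsf1b* had a log2 fold change of 1.54 (SE 0.47, edgeR adjusted p 0.144), with higher values in positive cells of 3 of 3 libraries and a call in 1 of 13 alternatives, that without shared barcodes (adjusted p 0.0119, where the 13 ranged from 0.0119 to 0.672). The genes with the largest drops, *Trdc*, *Klrk1*, *Klrd1*, *Klrc2* and *Tcrg-C1*, are gamma-delta T cell and NK receptor genes with fitted log2 fold changes from -8.79 to -7.92, sizes that depend on the prior count where the positive cells had no UMI. Among the *Foxp3*-negative other T cells, 32, 10 and 10 in the order of the libraries carried a gamma or delta chain UMI.

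The same lists were tested between the classes. Of 52 list genes 25 had enough counts. In CD4 T against CD8 T cells 4 rose and 1 fell, against a background of 3.85% of 4573 genes called in either direction. *Cd40lg*, the helper T cell ligand of CD40 (log2 fold change 4.54, SE 0.47, edgeR adjusted p 3.0e-10), *Nrp1*, the neuropilin-1 gene (2.91, adjusted p 3.1e-06), *Ctla4* (1.52, adjusted p 0.000390) and *Stat5b* (1.07, adjusted p 0.0494) were higher in CD4 T cells, and *Itgae*, the CD103 integrin gene of resident CD8 T cells, was lower (-3.87, adjusted p 1.8e-08). *Ctla4* kept the call in 10 of 13 alternatives and lost it without the vehicle library (edgeR adjusted p 0.276), and *Stat5b* kept it in 2 of 13, losing it without any of the 3 libraries.

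Against NK cells, CD4 T cells were higher for 6 and lower for 3 of the 25 genes, where 10.8% of all genes were called. *Il7r*, the IL-7 receptor gene (3.49, edgeR adjusted p 1.0e-12), and *Ctla4* (4.03, adjusted p 1.6e-07) rose, and *Il2rb* (-1.82, adjusted p 2.9e-08), the beta chain of the IL-2 receptor, and *Tbx21*, the T-bet gene (-2.33, adjusted p 2.6e-05) fell. CD8 T against NK cells gave 6 higher and 4 lower list genes at a background of 10.2%, led by *Il7r* (2.90, edgeR adjusted p 8.5e-10) and *Il2rb* (-1.89, adjusted p 1.0e-08).

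The 6 costimulatory ligands had too few counts in T and NK cells to be tested. *Cd86*, a ligand of CD28 and CTLA-4, had 231, 278 and 291 CPM in microglia and 180, 91.2 and 67.1 CPM in monocytes and macrophages. *Icosl*, the ICOS ligand, had 93.6, 84.3 and 72.6 CPM in microglia and 39.0, 17.7 and 14.5 CPM in monocytes and macrophages. *Cd80*, another CD28 ligand, had 37, 83 and 78 UMIs in microglia and 50, 10 and 0 UMIs in monocytes and macrophages, and *Tnfsf9*, the 4-1BB ligand, 19.5, 5.45 and 7.83 CPM in monocytes and macrophages. *Tnfsf4*, the OX40 ligand, had 1 UMI in all cells, and *Tnfsf18*, the GITR ligand, had 3. In monocytes and macrophages the vehicle library had the highest level of *Cd80*, *Cd86*, *Icosl* and *Tnfsf9*, whereas in microglia *Cd86* was lowest there.

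In CD4 T cells, 8 of the 10 genes were at least 2-fold higher in the vehicle library than in each niacin library on the CPM + 10 scale, all but *Cd28* and *Gata3*. Of 7503 genes with at least 10 UMIs in these cells, 5.73% met the same criterion. The genes were chosen with this contrast in view and only 1 vehicle library exists, so nothing is read from that share. In CD8 T cells 2 genes met it (*Ikzf2* and *Tnfrsf9*, background 4.24%), in other T cells 1 (*Tnfrsf9*, 4.44%), and in NK cells 1 of the 5 with at least 10 UMIs (*Ikzf2*, 10.8%). None of the 10 genes was 2-fold lower in the vehicle library than in both niacin libraries in these classes, as were 1.81% of all genes in CD4 T, 2.60% in CD8 T, 1.29% in other T and 5.42% in NK cells. Without shared barcodes the CD4 T levels of *Tnfrsf4* were 525, 171 and 130 CPM, those of *Icos* 586, 131 and 188 CPM, and those of *Tnfrsf9* 383, 0 and 15.7 CPM.

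The levels were also computed without the *Foxp3*-positive cells, which left 51, 38 and 47 CD4 T cells. A cell without a *Foxp3* UMI is not shown to lack the transcript, and among these cells up to 9 of the other genes were detected in a single vehicle cell, against up to 7 and 6 in the niacin libraries. The part of such cells in the levels was not tested. *Icos* then had 545 CPM in the vehicle library against 114 and 175 CPM, *Tnfrsf4* 369 against 160 and 127 CPM, *Izumo1r* 217 against 34.2 and 69.1 CPM and *Tnfrsf9* 122 against 17.1 and 21.8 CPM. *Il2ra* and *Tnfrsf18* no longer met the 2-fold criterion. *Il2ra* had 108 against 79.9 and 65.5 CPM, with overlapping exact Poisson intervals in all 3 libraries, and *Tnfrsf18* had 335 against 120 and 204 CPM. *Ikzf2* had 308 against 51.3 and 138 CPM, and *Cd28* (488, 411 and 244 CPM) and *Gata3* (234, 205 and 124 CPM) were little changed by leaving out the positive cells.

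Other markers differed between the CD4 T cells of the libraries. *Gzma*, a granzyme gene typical of NK cells, had 141 UMIs in 12 of 64 vehicle cells (386 CPM) and none in the niacin libraries. Classes that should lack *Gzma* gave similar shares in the vehicle library, 88 of 414 microglia (48.2 CPM) and 6 of 26 B cells (26.9 CPM). In the niacin libraries 10 of 897 and 7 of 1115 microglia were positive. The share of vehicle CD4 T cells was thus no higher than that of vehicle microglia and B cells, whereas their level of 386 CPM was above both. The source of these UMIs was not tested. The list of 7 NK markers summed to 502, 80.1 and 54.6 CPM, with 6, 4 and 3 of its genes detected. *Cd40lg* went the other way, at 63.0, 251 and 178 CPM. The median mitochondrial share of CD4 T cells was 5.69%, 6.89% and 4.54%. The part of these differences in the levels above was not tested.

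**Figure D5:**
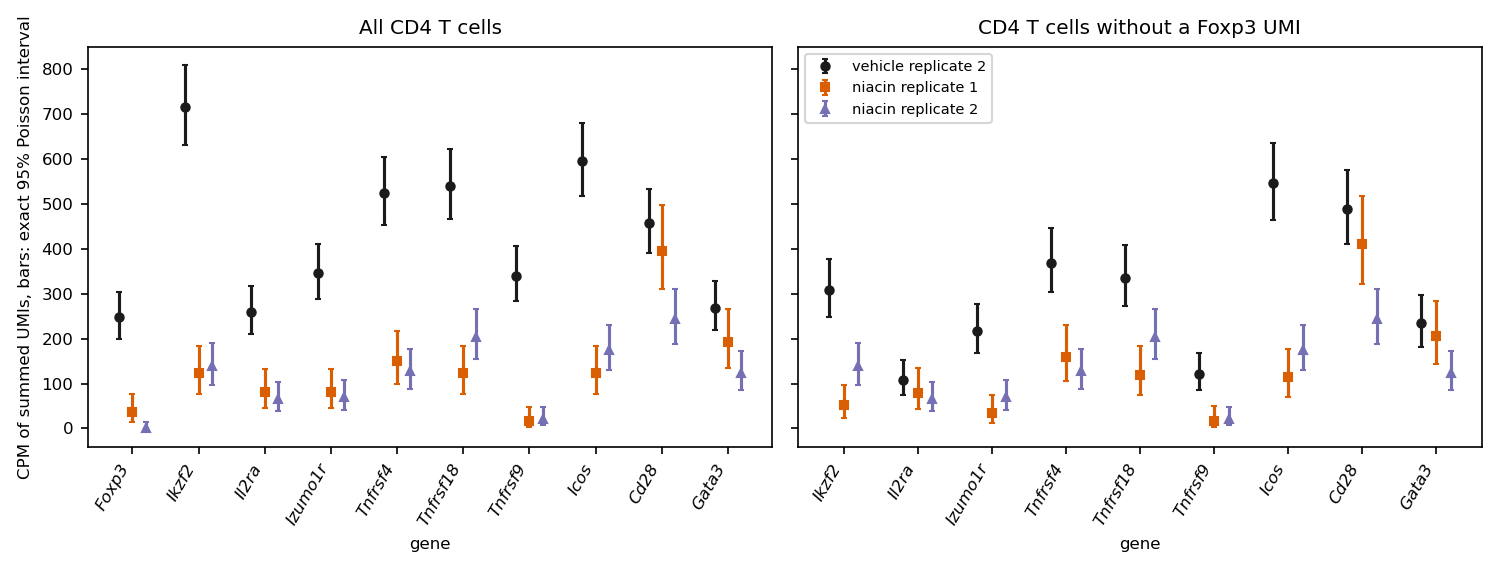
CPM of summed UMIs (vertical axis, bars: exact 95% Poisson intervals) of each gene (horizontal axis) in all CD4 T cells (left) and in CD4 T cells without a *Foxp3* UMI (right), by library. The vehicle library (black circles) is highest for *Icos* in both panels, at 595 and 545 CPM, whereas for *Il2ra* it drops from 260 to 108 CPM.

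Genes were also ranked by the likeness of their pattern over 31 class and library sums with at least 20 cells, as Pearson's r of log2(CPM + 10) among 11960 genes. These sums share libraries and depth, so r is a description. The 5 genes most like *Foxp3* were *Lrrc32* (0.96), *Izumo1r* (0.89), *Tnfrsf4* (0.89), *Ikzf4* (0.85) and *Ctla4* (0.85). *Ctla4* was the most like *Il2ra* (0.97), and *Izumo1r* and *Tnfrsf4* were the most like each other (0.96). *Icos* was nearest to *Izumo1r* (0.94), *Cd28* to *Tcf7* (0.97), *Gata3* to *Skap1* (0.98), *Tnfrsf18* to *Zap70* (0.94) and *Tnfrsf9* to *C1qtnf6* (0.94). *Ikzf2* had the lowest best match, *Rrad* (0.87). With 50 CPM added in place of 10 the nearest genes became *Cd6* for *Cd28* (0.96), *Cd247* for *Gata3* (0.97), *Gata3* for *Tnfrsf18* (0.96) and *Galnt6* for *Ikzf2* (0.87), whereas those of the other 6 genes were kept.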

How the data were processed

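Droplet scRNA-seq was analysed in 1 vehicle and 2 niacin libraries. The authors made the deposited UMI counts per gene and barcode with Cell Ranger 3.1, which aligns with STAR, on the mm10 genome. The counts were not normalized, and no column of per-sample values was left unused. Barcodes were kept if they had 200 or more detected genes and no more than 20% of their UMIs in mitochondrial genes. A cell took the lineage, of 9, with the highest marker sum when that sum was at least 3 UMIs and at least 2 times the next. T cells had *Cd3d*, *Cd3e* or *Trac* UMIs above those of *Ncr1*, *Klrb1c* and *Klre1*, and CD4 and CD8 T cells had UMIs of *Cd4* or of *Cd8a* and *Cd8b1* alone. NK cells had NK receptor UMIs and none of these T cell genes. No doublet caller was run. Barcodes of mixed lineage stayed unassigned, and leaving out the 5% of cells with the most UMIs was an alternative.

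UMIs were summed per library and class. CPM carry exact Poisson and shares exact binomial (Clopper-Pearson) 95% intervals, and a count of 0 was given a limit of 3 counts. Shares were also taken after thinning each cell to 1000 UMIs. Cells are not replicates, and with 1 vehicle library no test of vehicle against niacin was made. Classes, and *Foxp3*-positive against *Foxp3*-negative cells without *Foxp3* in the fit, were compared on sums with edgeR 4.0.16 quasi-likelihood tests blocked on library, with Benjamini-Hochberg adjustment at 0.05. The block pairs sums of the same library, and thus the same animals. The p-values measure the spread between these libraries only. The 3-library comparison outside the CD8 class had been planned as an alternative to that of CD4 T cells, and most of its own alternatives were added after the data had been seen. DESeq2 1.42.0, R 4.3.3, python 3.11.15, numpy 2.4.6, scipy 1.17.1 and pandas 2.3.3 were used, and the tests were tested on simulated data.

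The 10 genes, the 5 lists of 52 pathway genes and the tests were chosen with earlier results of these data known. Other genes are named where they are on a list and passed, are among the 5 highest or lowest calls with the same direction in every library, or lead in likeness. Alternatives changed size factors, filters, thinning, shared barcodes, marker minimums, the tool, the block and the libraries.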

Additional observations from a re-analysis of the deposited data

Results flagged for a closer look

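For *Tnfrsf18* the difference between CD8 T and NK cells pointed one way in the vehicle library and the other way in both niacin libraries. This difference between vehicle and niacin was not tested. The log2 ratio of CD8 T over NK cells (CPM + 10) was 0.54 in the vehicle library, against -1.16 and -0.91 in niacin replicates 1 and 2. The niacin libraries held 13 and 22 NK cells with 7 and 15 UMIs of the gene, and in each library the exact Poisson intervals of the 2 classes overlapped.

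T or NK cells that could not be resolved into a class took part in no comparison. Over the 3 libraries these 79 barcodes had a mean of 101 CPM of *Foxp3*, 417 CPM of *Ikzf2*, 206 CPM of *Il2ra* and 440 CPM of *Gata3*, each above the mean of CD4 T, CD8 T and NK cells. *Gata3* had 358, 241 and 722 CPM in the vehicle library and niacin replicates 1 and 2, and 1 barcode, shared between libraries, held 10 of the 11 *Foxp3* UMIs of niacin replicate 1. Without shared barcodes 59 of these barcodes remained, and the mean was 40.5 CPM of *Foxp3*, below the 120 CPM of CD4 T cells, 514 CPM of *Ikzf2*, 167 CPM of *Il2ra* and 516 CPM of *Gata3*. *Il1rl1*, the IL-33 receptor gene of type 2 innate lymphoid cells and some T cells, had 122, 219 and 253 CPM there, from 5, 1 and 3 cells.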

How the results depend on the processing

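Counts of called genes moved most. For CD4 T against CD8 T cells (176 genes), DESeq2 called 66, the fit with no replicate block 49, and fits without 1 library 82 to 133. For CD4 T against NK cells (495) these were 289, 210 and 311 to 448, with 296 without shared barcodes, and for CD8 T against NK cells (467) they were 302, 131 and 284 to 416, with 239 without shared barcodes. For *Foxp3*-positive against negative CD4 T cells (23), DESeq2 called 1 gene, no filter on low counts 4, thinning 4, leaving out shared barcodes 14 and leaving out the 5% deepest cells 12. With no replicate block edgeR called 0, with 111 genes at an unadjusted p under 0.05, and widening the cells to all T cells outside the CD8 class gave 35. No fit of the CD4 T cells without 1 library was possible, since only 2 libraries entered. Outside the CD8 class (35 genes), DESeq2 called 18, no filter 64, no mitochondrial limit 55, thinning 11, thinning of deepest copies only 11 and fits without 1 library 34 to 45. The *Gata3* log2 fold change with *Foxp3*, near 0 in both fits, turned to -0.45 (no filter), -0.54 (DESeq2), -0.11 (without shared barcodes) and -0.01 (without the 5% deepest cells) in CD4 T cells, and ranged from -0.13 to 0.72 without 1 library outside the CD8 class. The *Foxp3* share of CD4 T cells in niacin replicate 1 was 0% when thinned to 500 UMIs. The cause of these moves was not tested. Of the other values, 277 of 280 mean CPM of the 10 genes moved by no more than the SD of the 3 libraries. That SD includes the gap between vehicle and niacin libraries. For *Foxp3* in CD4 T cells it was 133 CPM at a mean of 94.8 CPM, so the count says little about stability. No paired analysis was possible because only 1 vehicle library exists for the treatment comparison. Among CD4 T, CD8 T and NK cells the summed UMIs were lowest in NK cells of the niacin libraries (30593 and 90264, from 13 and 22 cells). There, 0 counts allow 98.1 and 33.2 CPM.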
